A study of Danio rerio with 6 samples.

Results

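The genes described here are those of zebrafish whose symbols begin with mrpl or mrps and a digit, the genes for the proteins of the large and the small subunit of the mitochondrial ribosome. They were found by matching the RefSeq accession of each array probe to a symbol. The RefSeq gene table of assembly GRCz12tu lists 75 such symbols. Of these, 64 had a probe on the array (38 large subunit, 26 small subunit, 100 probes). A probe was kept where it was well above background on all 6 arrays in at least 1 of the channels, control or trained, and the brightest kept probe stood for its gene. That left 63 genes, 37 of the large and 26 of the small subunit, among 15772 genes tested. Of all those tested, 9241 had a symbol. The rest were counted under the array's own name, so some may repeat a gene with a symbol. mrpl23 was on the array and was too dim. The 11 symbols without a matched probe were mrpl1, mrpl2, mrpl33, mrpl42, mrpl47, mrpl49, mrpl52, mrpl54, mrpl58, mrps7 and mrps12, which are not analysed here.

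The mitochondrial ribosome translates the few messenger RNAs that mitochondrial DNA encodes, all of them for hydrophobic subunits of the respiratory chain and ATP synthase. Its ribosomal RNAs come from mitochondrial DNA, whereas its proteins are encoded in the nucleus, made in the cytosol and imported. Many of them have a counterpart in the bacterial ribosome, and others are found only in mitochondria. A working respiratory chain thus needs the products of both genomes.

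The study asked how swim-training changes gene expression in the larval caudal fin. Wildtype zebrafish were trained in 3 h sessions each day from 5 to 10 days post fertilisation, and untrained fish served as controls. At 10 days post fertilisation every fish was cut into head, body and caudal fin, and RNA came from fins of 15 fish per pool, so a value is that of pooled animals. Each group had 2 pools. On 2-colour arrays, control pool C2 was set against trained pool T2 (pair 2, 4 arrays, of which 2 were technical repeats), and control pool C3 against trained pool T3 (pair 3, 2 arrays). Both dye orientations were hybridised for each pair, and 100 ng of RNA was labelled. The labels do not say whether a pool number marks a shared clutch or day, so a p-value over the 2 pairs measures the spread between these pools. In such bulk samples, fewer cells of a type and less RNA per cell cannot be told apart.

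Between 54.2% and 81.1% of probes were well above background per array and channel, and 0 spots were saturated. Over all genes tested, the standard deviation of the log2 ratio of trained over control was 0.15 in pair 2 and 0.53 in pair 3. The pairs therefore differed in spread across the whole array, and each pair's values are given below. Of the fin fold and fin epidermis list 15 of 16 genes were kept, with median log2 ratios of 0.10 and 0.15 in pairs 2 and 3. All 20 of 20 skeletal muscle markers were kept as well, as were 8 of 10 neural and glial markers. Of ionocyte and mucous cell markers 4 of 12 were kept. Without the filter there were 28367 genes, of which 15772 were kept. Passing the filter is thus no check of the tissue label.

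Most mitochondrial ribosomal protein genes were lower in trained than in control fins in pair 3, and their ratios were closer to 0 in pair 2. The median log2 ratio of trained over control over the 63 genes was -0.05 in pair 2 and -0.39 in pair 3, against 0.02 and 0.05 over all genes tested. The pair 3 median ranged with the processing from -0.23, with local backgrounds as deposited, to -0.64, where each array was only centred on its median, which also put pair 2 at -0.0050. In pair 3, 57 of the 63 genes lay below 0, as did 44.7% of all genes tested. In pair 2, 43 of the 63 lay below 0, beside a background of 43.4%. Below 0 in both pairs were 42 genes (24.7% of all genes tested), and below 0 on all 6 arrays were 15 (8.38% of all genes tested). Among those below 0 in both pairs, mrps9 and mrpl13 were kept only through the control channel, in which they were higher. Nothing rests on the count of these genes. At least 1.5-fold lower in pair 3 were 20 genes, 11 of the large and 9 of the small subunit (background 7.72%), and at least 1.5-fold higher were 3 (background 13.2%). Of these, mrpl16 and mrps6 among the higher and mrps9 among the lower were kept only through the channel in which they were higher, so nothing rests on their count. In pair 2 no gene reached that size in either direction (background 0.323% lower and 0.317% higher). The summed intensity of the set was 44703 in C2, 47184 in T2, 45941 in C3 and 44685 in T3. mrpl20 alone held 17302, 20833, 10608 and 16866 of these. Without mrpl20, left out after its values were seen, the sums were 27401, 26351, 35333 and 27818, with C3 the highest pool. The small subunit summed to 12155 in C3 and 9231 in T3, and the large subunit without mrpl20 to 23177 and 18588.

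**Figure D1:**
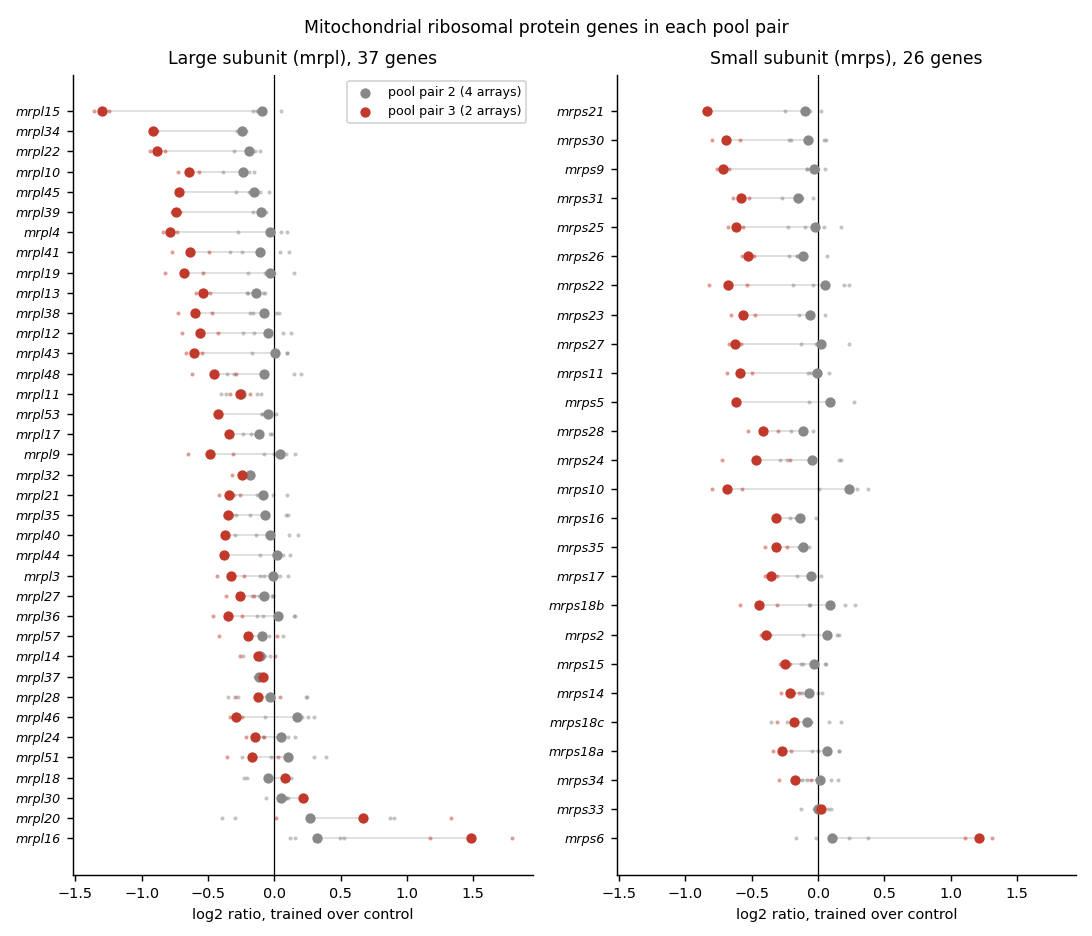
Each line is 1 gene, with the large subunit on the left and the small subunit on the right. The x axis is the log2 ratio of trained over control, large points are the value of pool pair 2 (grey) and of pool pair 3 (red), and small points are single arrays. In pair 3, 57 of 63 red points lie left of 0, and mrpl16, mrps6 and mrpl20 lie farthest to the right.

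With the 2 pool pairs as replicates, no gene of the set passed the test. By limma on the 2 pair values with Benjamini-Hochberg adjustment over all genes tested, 0 of 63 genes had an adjusted p under 0.05 (background 0%), with 0.751 as the smallest value. Without adjustment, mrpl34 was the 1 lower gene with a p under 0.05 (background 1.82%) and mrpl16 the 1 higher gene (background 2.17%). The mrpl16 probe was kept only through the trained channel, where it was higher, so its p is not support for a higher level, and another probe of mrpl16 had the opposite sign. An exact sign-flip test over 2 pairs cannot go below p = 0.5. The mean of both pairs had a median of -0.23 over the set and 0.04 over all genes tested.

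A second fit used the 6 arrays with the dye as a term and measured each pair against the spread between hybridisations of the same RNA. It compares these pools and not the conditions. By limma and Benjamini-Hochberg adjusted p under 0.05, 12 genes were lower and 4 higher in trained than control in pair 2, where 13% and 19.7% of all genes tested were called. In pair 3, 53 of the 63 were lower and 4 higher (background 30.7% and 40%). The difference between the pairs was itself called for 52 genes: pair 3 was the lower one for 49 and the higher one for 3 (background 29.5% and 34.3%). Among the higher genes, mrpl16 and mrps6 were kept only through the trained channel, in which they were higher. Among the lower, mrps9 and mrpl13 were kept only through the control channel, so nothing rests on their count. With a filter on both channels, 53 of 60 were lower and 2 higher in pair 3 (32.5% and 40.3% of all genes tested). Between the pairs it was 48 and 2 (31.7% and 35.1%). The calls of this fit depended on how backgrounds were treated. With processed signals, where no local background was replaced, 54 were lower and 4 higher in pair 3 (34.7% and 43.2% of all genes tested). Between the pairs the counts were then 50 lower and 4 higher (33.8% and 38.1% of all genes tested). With the local backgrounds as deposited, 5 genes were called lower and 1 higher in pair 3, where 3.11% and 4.05% of all genes tested were called. In pair 2, 1 was called lower and 1 higher (1.60% and 2.97% of all genes tested). Between the pairs limma called 0 genes of the set in either direction, beside 1.65% and 1.86% of all genes tested. The counts of genes below 0 were 57 in pair 3 and 43 in pair 2, as with the backgrounds replaced.

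Genes of both subunits were lower in trained fins in pair 3. In the large subunit the median log2 ratio was -0.07 in pair 2 and -0.35 in pair 3, with 27 and 33 of 37 genes below 0. In the small subunit it was -0.03 in pair 2 and -0.46 in pair 3, with 16 and 24 of 26 genes below 0. Of all genes tested, 43.4% lay below 0 in pair 2 and 44.7% in pair 3. The order of the subunits thus differed between the pairs. In pair 3 the interquartile range ran from -0.61 to -0.20 in the large and from -0.62 to -0.28 in the small subunit, so the ranges overlapped, and no difference between the subunits was tested. On the 2 arrays of pair 3 the medians were -0.42 and -0.36 for the large and -0.57 and -0.42 for the small subunit, while on the 4 arrays of pair 2 no median of either subunit went below -0.12. In mammalian mitochondrial ribosomes the proteins of mrps30 and mrps18a sit in the large subunit despite their names. Counting both with the large subunit left its medians at -0.07 and -0.35.

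**Figure D2:**
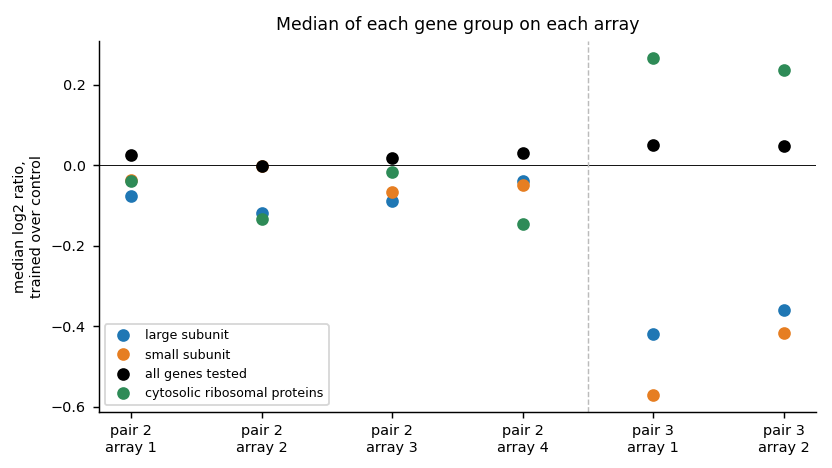
Median log2 ratio of trained over control (y axis) on each of the 6 arrays (x axis) for the large subunit, the small subunit, cytosolic ribosomal protein genes and all genes tested. The dashed line separates the arrays of pool pair 2 from those of pool pair 3, where both subunits lie between -0.57 and -0.36 on both arrays.

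The genes were also split by the origin of the protein. The 24 large subunit genes with a bacterial counterpart had a median of -0.06 for pair 2 and of -0.34 for pair 3, and the 13 found only in mitochondria had -0.07 and -0.42. The 16 small subunit genes with a bacterial counterpart had -0.03 and -0.40, and the 10 found only in mitochondria had -0.04 and -0.57. By their brightest probes, all 13 mitochondria-specific large subunit genes were below 0 in pair 3 (44.7% of all genes tested), from -0.74 to -0.08. A second kept probe of mrpl51, which is among the 13, read 0.24 in pair 3. The members far above 0 all belonged to the classes with bacterial counterparts, whose pair 3 values spanned -1.30 to 1.48 in the large and -0.84 to 1.21 in the small subunit. The values of 1.48 and 1.21 are those of mrpl16 and mrps6, whose probes were kept only through the trained channel, in which they were higher, and a second probe of mrpl16 read -0.87. They therefore tell nothing about the classes, and no difference between classes was tested.

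Signals of the separate channels, scaled between arrays and balanced over the dyes, gave a level for each gene in each pool. By these levels C3, more than T3, lay apart from the pools of pair 2. That was so across the array and not only in this set. Over all genes tested, the SD of the difference from C2 and from T2 was 0.42 and 0.47 for C3, and 0.37 and 0.35 for T3. The pools of pair 3 were never on an array with those of pair 2. Levels across the pairs thus compare arrays, and a shift between arrays cannot be told apart from one of the pools. C3 was the highest of the 4 pools for 56 of the 63 genes, 32 of the large and 24 of the small subunit, against 28.3% of all genes tested. C3 lies above T3 wherever the pair 3 ratio is below 0, as in 57 genes (44.7% of all genes tested). The count of 56 thus partly restates the ratios. T3 was the lowest pool for 26 genes (background 29.2%), T2 for 22 (background 14.3%), C2 for 12 (background 15.5%) and C3 for 3 (background 41%). The median log2 level of the genes in C3 was 0.40 above the mean of C2 and T2, whereas T3 was at -0.01. The same medians over all genes tested were -0.06 and 0.00. Above the mean of C2 and T2 were 59 of 63 genes in C3 (background 42.7%) and 31 of 63 in T3 (background 50.6%). Both trained pools were below both control pools for 28 genes (background 13.9%) and above both for 2 (background 22.7%). Such an order needs the ratios of both pairs on the same side of 0, so these counts partly restate the ratios as well. The 2 are mrpl16 and mrpl30, whose other probes had the opposite sign, and the mrpl16 probe was kept only through the trained channel. Among the 28, and among the 56 highest in C3, are mrps9 and mrpl13, kept only through the control channel. Nothing rests on the count of these genes. With a filter on both channels, C3 was the highest pool for 55 of 60 genes (29.0% of all genes tested).

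The levels were also split by slide, between pools that carried the same dye, though on different arrays of the slide. The 2 arrays of pair 3 lay on different slides, and the C3 level above already joins them. The values per slide thus split that level and are no separate support for it. The median C3 level exceeded that of C2 by 0.37 on slide 1 and by 0.38 on slide 2, and C3 was above C2 for 59 and 55 genes (43.9% and 48.5% of all genes tested). The median T3 level was 0.02 and 0.06 above T2 on these slides. Over all genes tested the C3 minus C2 medians were -0.05 and -0.02. Centring each array on its median in place of scaling between arrays gave 0.35 for C3 and -0.09 for T3. In every alternative run C3 was the highest pool for 50 to 57 genes (26.1% to 31.2% of all genes tested). These runs held 63 genes, except the run with a filter on both channels, which held 60. With 2 pools a group, a difference of pool C3 alone, a shift between arrays and an effect of training cannot be told apart.

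**Figure D3:**
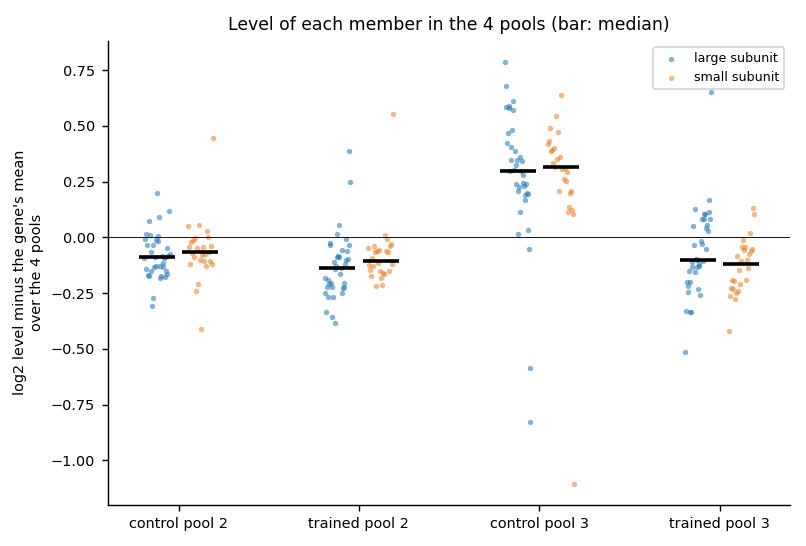
Level of each gene in the 4 pools, as log2 level minus the gene's mean over the pools (y axis), with large subunit genes in blue and small subunit genes in orange and bars at the medians. The medians in control pool 3 are 0.30 and 0.31, and those of the other pools lie between -0.14 and -0.07.

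Among large subunit genes with the lowest mean ratio, mrpl15 encodes a protein whose bacterial counterpart takes part in assembly of the large subunit. Its log2 level was 8.78 in C2, 8.69 in T2, 9.66 in C3 and 8.35 in T3. C3 stood apart from the rest, T3 was the lowest, and both trained pools were below both control pools. The log2 ratio was -0.09 in pair 2 and -1.30 in pair 3. Its mean was -0.70 ± 0.31 (moderated limma SE, limma adjusted p = 0.751). A moderated SE also draws on the variances of all genes tested. Here it was smaller than the SE of the 2 pair values alone, whose SD was 0.86.

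mrpl34, which encodes one of the smallest proteins of the subunit, had log2 levels of 7.24 in C2, 6.996 in T2, 7.83 in C3 and 6.92 in T3. The trained pools again lay below both controls, with T2 close to T3. Its ratio was below 0 on all 6 arrays, at -0.24 in pair 2 and -0.91 in pair 3 (SD of the pair values 0.47). The mean was -0.58 ± 0.22 (moderated limma SE, limma adjusted p = 0.751). Its unadjusted limma p was 0.0467, and the mean ratio was -1.16 with processed signals. In the fit of 6 arrays its pair 2 ratio had a limma adjusted p of 0.000506.

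mrpl22 encodes the counterpart of a bacterial protein that lines the exit tunnel for the nascent chain. Its levels were 7.90 in C2, 7.71 in T2, 8.72 in C3 and 7.84 in T3. T3 lay between the pools of pair 2, just under C2, so the groups did not overlap by a narrow margin, and C3 was far above them. The ratios of -0.19 and -0.88 (SD 0.49) gave a mean of -0.54 ± 0.22 (moderated limma SE, limma adjusted p = 0.751).

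mrpl10, whose bacterial counterpart anchors the stalk that recruits translation factors, had levels of 7.75 in C2, 7.51 in T2, 8.16 in C3 and 7.52 in T3. The trained pools were nearly equal and both controls lay above them. Its ratios were -0.24 and -0.64, below 0 on all 6 arrays. A second kept probe of mrpl10 gave -0.17 and -0.21, of the same sign and smaller in pair 3. The mean ratio of mrpl10 was -0.44, and -0.24 in the runs with an offset of 10 or with processed signals. Its 2 probes were nearly tied in brightness, at mean log2 intensities of 7.693 and 7.687. Whether the same probe stood for mrpl10 in those runs was not tested.

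Of the mitochondria-specific large subunit genes, mrpl45, whose mammalian protein ties the ribosome to the inner membrane, had ratios of -0.16 and -0.72 and a second probe at -0.25 and -1.31. mrpl39, related in sequence to threonyl-tRNA synthetase, had -0.10 and -0.74, with C3 the highest pool and T3 at 7.29 beside 7.27 in C2, so the groups overlapped. mrpl41 had -0.11 and -0.63, and -0.08 and -0.57 with a second probe. Each of the 3 was lower in pair 3 than in pair 2, and in mrpl41 and mrpl45 both trained pools lay below both control pools. mrpl4, another counterpart of a tunnel protein, had -0.03 in pair 2 and -0.78 in pair 3, and -0.18 and -0.94 with a second probe.

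In mrpl11 the brightest probe gave about the same ratio in both pairs. mrpl11, the counterpart of a bacterial protein of the GTPase centre, stood at -0.25 in pair 2 and at -0.26 in pair 3 and was below 0 on all 6 arrays. Its levels were 10.72 in C2, 10.48 in T2, 11.25 in C3 and 10.99 in T3, so both pools of pair 3 were above both pools of pair 2. The difference between the pairs had a limma adjusted p of 0.889 against hybridisation spread. A second probe of mrpl11 gave -0.07 and -0.42, so the closeness of the pairs rests on the probe.

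In the small subunit mrps21 had the lowest mean ratio in these values, whereas with an offset of 10 or with processed signals mrps9 was lower (-0.72 against -0.54, and -1.46 against -0.58). Its levels were 8.77 in C2, 8.67 in T2, 9.13 in C3 and 8.30 in T3, which puts C3 at the top, T3 at the bottom and the pools of pair 2 between them. The ratios were -0.10 and -0.84 (SD 0.52), with a mean of -0.47 ± 0.23 (moderated limma SE, limma adjusted p = 0.751).

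mrps30 had levels of 9.11 in C2, 9.04 in T2, 9.59 in C3 and 8.89 in T3. The order of the pools was that of mrps21, with a smaller gap between C3 and T3. Its ratios were -0.08 and -0.70, and other probes gave -0.18 and -0.79 and -0.10 and -0.69.

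mrps9, whose bacterial counterpart reaches towards the transfer RNA in the peptidyl site, had levels of 6.42 in C2, 6.39 in T2, 7.02 in C3 and 6.31 in T3. The pools C2, T2 and T3 lay close together and C3 above them, with ratios of -0.03 and -0.72. Its probe was well above background in the trained channel on 4 of 6 arrays and in the control channel on all 6, so it was kept through the channel in which it was higher. mrpl13 was kept in the same way, with 2 of 6 arrays in the trained channel.

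mrps31, found only in mitochondria, had levels of 7.65 in C2, 7.50 in T2, 8.06 in C3 and 7.48 in T3. The trained pools were close to each other and below both controls, and the ratio was below 0 on all 6 arrays, at -0.15 and -0.58. Other small subunit genes low in pair 3 were mrps25 (-0.03 and -0.62), mrps26 (-0.12 and -0.53) and mrps11 (-0.01 and -0.59, with a second probe at -0.05 and -0.80), the last a counterpart of a bacterial platform protein. In all 3, both trained pools were below both control pools, an order that partly follows from their choice by low mean ratio. In mrps25 and mrps11 the pair 2 part of this order is not resolved. Their pair 2 ratios had limma adjusted p of 0.68 and 0.86 against hybridisation spread. mrps10, the counterpart of a bacterial protein of the subunit's head, turned between the pairs, at 0.23 and -0.68. Its pair 2 ratio had a limma adjusted p of 0.00893 against hybridisation spread and its level in C3 was 9.12, above 8.06, 8.29 and 8.43 in C2, T2 and T3.

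A few genes ran the other way. mrpl16 encodes the counterpart of a bacterial protein next to the peptidyl transferase centre. Its brightest probe had levels of 7.42 in C2, 7.74 in T2, 6.66 in C3 and 8.14 in T3. Both trained pools were above both controls and C3 was the lowest. The ratio was above 0 on all 6 arrays, at 0.32 in pair 2 and 1.48 in pair 3 (SD of the pair values 0.82). The mean was 0.90 ± 0.30 (moderated limma SE, limma adjusted p = 0.751). Its unadjusted limma p was 0.0302, and the mean ratio was 1.81 with processed signals. The other kept probe of mrpl16 gave -0.16 and -0.87, the opposite direction in both pairs. The brighter probe was well above background in the control channel on 5 of 6 arrays and was kept through the trained channel, whereas the other probe passed in both channels. Under a filter that asks for both channels, mrpl16 therefore had a mean ratio of -0.52.

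mrps6, the counterpart of a bacterial platform protein, had levels of 8.15 in C2, 8.26 in T2, 6.60 in C3 and 7.81 in T3. C3 was far below the other pools, T3 below both pools of pair 2, and the groups overlapped. Its ratios were 0.11 and 1.21 (mean 0.66, or 1.85 with processed signals) from 1 probe, which was also kept through the trained channel, with 5 of 6 arrays in the control channel.

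mrpl20, whose bacterial counterpart acts early in assembly of the large subunit, had levels of 14.08 in C2, 14.35 in T2, 13.37 in C3 and 14.04 in T3. C3 was the lowest pool and T2 the highest, with T3 just under C2. Its ratios were 0.27 and 0.67, and a second probe gave 0.19 and 0.63. The single arrays depended on the dye: with trained RNA in Cy5 they read 0.87, 0.90 and 1.33, and with trained RNA in Cy3 -0.30, -0.40 and 0.01. The dye term of mrpl20 was 0.63, the next in size among the 63 genes was 0.24, and the median size was 0.07. The mean over both orientations cancels an additive dye effect.

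mrps33, a mitochondria-specific gene, was flat within both pairs, at 0.00 and 0.02. Its levels were 6.58 in C2, 6.58 in T2, 6.81 in C3 and 6.83 in T3, so the pools of pair 3 were above those of pair 2 and the groups overlapped. mrps34, another mitochondria-specific gene, had 0.01 and -0.17 with its brightest probe, and -0.11 and -0.67 with a second one. Besides mrpl16, mrps6, mrpl20 and mrps33, the genes in which C3 was not the highest pool were mrpl30, mrpl18 and mrpl32, the last 2 chosen for mention after their values were seen. mrpl18 had ratios of -0.05 and 0.08, and mrpl32 had -0.18 and -0.24 with C2 the highest pool.

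Different probes of the same gene were set side by side. The 63 genes had 93 kept probes, of which 69 were below 0 in pair 2 and 84 in pair 3, with medians of -0.08 and -0.47. Of all genes tested, each by its brightest probe, 43.4% and 44.7% lay below 0. The share over all kept probes was not taken. More than 1 probe was kept for 26 genes. In pair 3 all kept probes had the same sign for 22 of them. For 18 of the 26, more than 1 of which had 3 probes, at least 1 other probe was lower than the brightest one. These counts were not taken over other genes and describe the 26 only. The 4 genes with probes of opposite sign were mrpl16, mrpl30, mrpl51 and mrps5. mrpl30 had 0.05 and 0.22 with its brightest probe and -0.17 and -0.58 with the other. mrps5, the counterpart of a bacterial protein involved in decoding accuracy, had 0.09 and -0.62 against 0.04 and 0.24, and mrpl51 had 0.11 and -0.17 against 0.04 and 0.24. The direction of these 4 genes thus depends on the probe.

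Proteins of the mitochondrial ribosome that carry other symbols were read in the same way. Of 5 such genes, 4 were tested. All 4 were below 0 in both pairs (24.7% of all genes tested) and highest in C3 (28.3% of all genes tested). dap3, a GTP-binding protein of the small subunit, stood at -0.06 in pair 2 and at -0.77 in pair 3. aurkaip1 had -0.07 and -0.58, ptcd3, a pentatricopeptide protein, had -0.07 and -0.33, and chchd1 had -0.0041 and -0.39, with a mean of -0.20 that was -1.09 with processed signals. In contrast to many of the main set, T2 was the lowest pool for all 4 (14.3% of all genes tested). T3 was above the mean of C2 and T2 by a median of 0.13. The chchd1 probe did not pass a filter that asks for both channels, so nothing rests on its place in these counts.

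Genes that act with the mitochondrial ribosome were counted list by list. By the limma test over pool pairs, 0 of them passed after adjustment, and 1, c1qbp, was lower with an unadjusted p under 0.05, as were 1.82% of all genes tested. Of 15 translation factors 11 were tested, with a median of -0.02 (pair 2) and -0.11 (pair 3). Of these, 8 were below 0 in pair 3 (44.7% of all genes tested). Among the 8, tufm, the elongation factor that delivers aminoacyl-tRNA, had -0.13 and -0.95, and mtres1, a rescue factor, had -0.05 and -0.47. gfm2, which acts in ribosome recycling, was above 0, with 0.14 and 0.31. Of 22 aminoacyl-tRNA synthetase and amidotransferase genes 10 were tested, with medians of 0.04 and -0.08. In pair 3, 5 of the 10 were below 0, near the 44.7% of all genes tested. kars1, the lysyl-tRNA synthetase of both cytosol and mitochondria, had -0.11 and -0.78, gatb, an amidotransferase subunit, had 0.06 and -0.44, and ears2, the glutamyl-tRNA synthetase, had 0.08 and 0.68.

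Assembly factors and ribosomal RNA modification enzymes numbered 16 tested of 26, with medians of 0.03 and -0.18. In pair 3, 12 of the 16 were below 0 (44.7% of all genes tested). c1qbp, a matrix protein that binds the mitochondrial ribosome, had -0.38 in pair 2 and -1.32 in pair 3, and its levels were 10.46 in C2, 10.08 in T2, 11.49 in C3 and 10.17 in T3. Both trained pools of c1qbp were below both controls, and its unadjusted limma p was 0.0232 (adjusted p = 0.751). rcc1l had 0.03 and -0.53 and mterf4, which works with a ribosomal RNA methyltransferase, had -0.11 and -0.32, with a mean of -0.21 that was -0.84 with processed signals.

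Of 13 genes of mitochondrial DNA maintenance and transcription 5 were tested. By their brightest probes, all 5 were below 0 in both pairs (24.7% of all genes tested), with medians of -0.10 and -0.53. C3 was the highest pool in all 5 (28.3% of all genes tested). tfam, the packaging and transcription factor of mitochondrial DNA, had -0.22 and -0.53, and ssbp1, its single-strand binding protein, had -0.10 and -0.89. lrpprc, which stabilises mitochondrial messenger RNA, had -0.09 and -0.62 by the brightest of 3 kept probes. The mean ratio of lrpprc was -0.36 by that probe and 0.019 with the mean of kept probes, so its sign depends on the probe. Transcription factors of nuclear mitochondrial genes had 9 of 13 tested, with medians of 0.00 and -0.40. T3 was the lowest pool for 7 of the 9 (29.2% of all genes tested). nrf1, named for nuclear respiratory genes, had -0.10 and -0.50, yy1b had -0.07 and -0.87, and tfb2m had -0.09 and -0.45. tfb2m itself acts with the mitochondrial RNA polymerase on mitochondrial DNA and is no factor of nuclear genes. It stands in both lists and is counted in each.

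Set beside the nuclear genes for respiratory chain and ATP synthase subunits, the median ratios were close and the pool levels differed. The 75 respiratory genes tested had a median ratio of -0.05 for pair 2 and of -0.40 for pair 3, against -0.05 and -0.39 for the mitochondrial ribosomal proteins. In levels relative to the mean of C2 and T2, the respiratory genes had a median of 0.08 in C3 and -0.30 in T3, whereas the mitochondrial ribosomal proteins had 0.40 and -0.01. T3 was the lowest pool for 57 of the 75 respiratory genes (29.2% of all genes tested) and C3 the highest for 43 (28.3%). The 80 cytosolic ribosomal protein genes had median ratios of -0.11 and 0.25, with C3 at -0.29 and T3 at 0.00. These are descriptions of 4 pools, and no difference between the gene sets was tested.

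**Figure D4:**
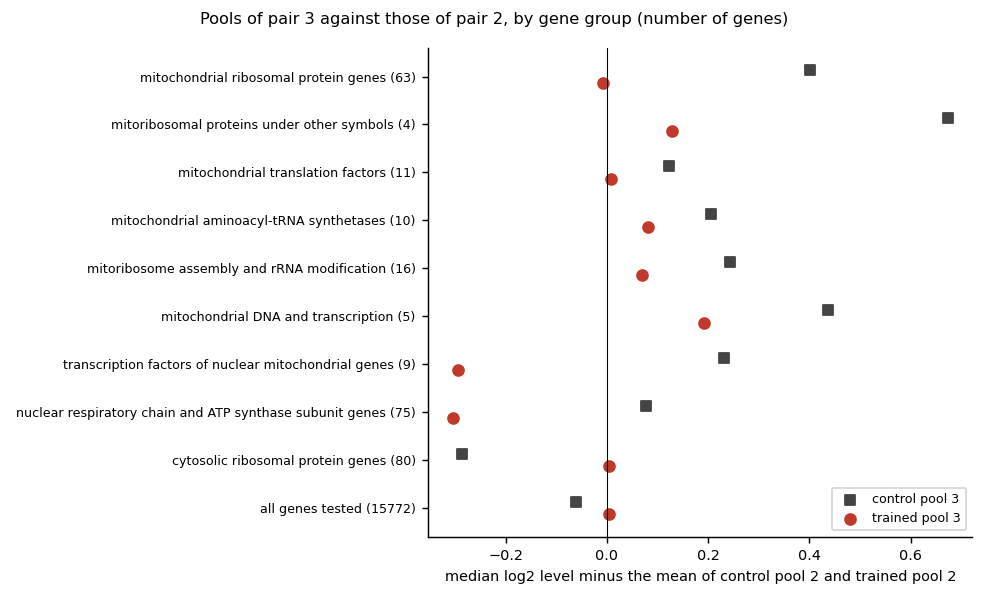
Median log2 level of each gene group in control pool 3 (squares) and trained pool 3 (circles), minus the mean of control pool 2 and trained pool 2 (x axis), with the number of genes tested in brackets. The mitochondrial ribosomal protein genes lie at 0.40 and -0.01, the respiratory chain subunits at 0.08 and -0.30, and the cytosolic ribosomal proteins at -0.29 and 0.00.

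Marker lists of other cell types were read in the same pools, since the tissue content of a fin sample can vary. Skeletal muscle, rich in mitochondria, had 20 of 20 markers kept, and their median ratio was 0.23 in pair 2 and -0.25 in pair 3. Its summed intensity was 372896 to 434770 in the control and 454107 to 553700 in the trained pools, and the median level was -0.42 in C3 and -0.55 in T3 relative to pair 2. Ionocyte and mucous cell markers, of which 4 of 12 were kept, had a summed intensity of 3622 to 4682 in control and 3439 to 4020 in trained pools, with C3 at 0.33 and T3 at 0.17. Pigment cell markers, with 5 of 12 kept, had 5746 to 6920 in control and 2857 to 2906 in trained pools, with C3 at 0.66 and T3 at -0.44. Relative to the mean of C2 and T2, the medians in C3 and T3 were -0.02 and 0.44 for cartilage and bone (10 of 12 markers kept), -0.10 and -0.72 for blood cells and vessels (4 of 13), -0.42 and -0.24 for neural and glial cells (8 of 10), and 0.05 and 0.01 for gut, liver and pancreas (6 of 10). The part of these cell types in the result was not tested.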

How the data were processed

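RNA of 4 pools was measured on 6 arrays, which form 2 pool pairs. Scans were read by the authors in Agilent Feature Extraction 10.5.1.1, per the submitters' processing notes. Each deposited scanner file gives the median intensity of each spot and its local background in both channels, flags, and a processed intensity. The deposited value table holds a log10 ratio of Cy5 over Cy3 within 5e-10 of that of the scanner files on 5 arrays and within 0.00415 on 1, with column medians of 0, and was an alternative only. Local backgrounds over 10 median absolute deviations from an array's median were replaced by it, a step chosen after the data had been seen. Intensities were corrected with normexp (offset 50) and loess in R 4.3.3 with limma 3.58.1, with the R package data.table, version 1.17.8, for tables. Such an offset draws the ratio of a dim probe towards 0. Log2 ratios were averaged per dye orientation, then over both. Tests were limma, two-sided, on 2 pair values (1 residual degree of freedom, prior 4.15). They were also run on 6 arrays with dye as a term (prior 9.39). Both fits were tried on simulated ratios with the same spread in each pair, unlike these data. That trial does not show how they behave under unequal spread. The array holds both pools of a number, so the pairing comes from the hybridisation and is in every ratio. Pool levels used Aquantile scaling. Precision is limited by how few pools and arrays there are.

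The 43603 probes were named by RefSeq accession without version: 25173 had 1 of 12900 symbols. The array design uses an older build, and no coordinates are given. The members and the gene lists were chosen with earlier results of these data known. Genes named are, per subunit, the 6 lowest and 3 highest mean ratios, the 3 lowest of each class, those with the largest pair 2 ratio or pair difference, those with probes of opposite sign, and the 3 lowest unadjusted p of each related list. Alternatives covered background, offset, normalisation, filters, probe choice, technical repeats, slide, blocks and leaving out arrays or pairs.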

Additional observations from a re-analysis of the deposited data

How the results depend on the processing

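The 2 pool pairs limit every statement. The test over pairs called 0 genes of the set in each alternative except 2 that count arrays as separate values: slide as a block gave 51 lower and 4 higher (27.6% and 39.7% of all genes tested), and independent arrays gave 1 lower, mrpl11, and 0 higher (0.907% and 1.43%). The random block of pool pairs called 0 genes of the set, and so did the fit with no replicate block, on 4 unpaired pools. Leaving out pair 3 or pair 2 gave medians of -0.05 and -0.39 for the set, -0.07 and -0.35 for the large and -0.03 and -0.46 for the small subunit.

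In the order all, large and small, the pair 3 medians were -0.23, -0.21 and -0.28 with local backgrounds as deposited, -0.47, -0.43 and -0.62 with an offset of 10, -0.59, -0.51 and -0.76 with processed signals or the deposited table (0.10 over all genes tested), and -0.64, -0.62 and -0.69 with median centring in place of loess. Centring also moved the pair 3 median of all genes tested from 0.05 to -0.07, and gave pair 2 medians of -0.0050, -0.0081 and 0.0021, the last of which changed sign. The mean of kept probes gave -0.068 for all in pair 2 and -0.43 for the large subunit in pair 3. The dimmest probe, added after seeing the data, gave -0.080 for all in pair 2. In pair 3 it gave -0.48 for all and -0.54 for the large subunit, and slide 1 alone gave -0.41 for the large subunit. Pair 2 was -0.070 with processed signals or the deposited table. The cause of these shifts was not tested.

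Against hybridisation spread, local backgrounds as deposited gave 1 lower and 1 higher in pair 2, 5 and 1 in pair 3 and 0 and 0 between them, beside 1.60% and 2.97%, 3.11% and 4.05%, and 1.65% and 1.86% of all genes tested. Lower calls in pair 2 numbered 3 with centring (5.85% of all genes tested), 6 with no filter (5.22%) and 6 without technical repeats (7.82%), and higher calls 2 with processed signals or the deposited table (18.5%). Higher calls in pair 3 numbered 2 with centring (23.8%, against 38.3% lower over all genes tested, where loess gave 40.0% and 30.7%) and 2 with the filter on both channels (40.3%). Leaving out 1 array gave 6 to 14 lower (8.62% to 13.8% of all genes tested) and 2 to 4 higher (12.2% to 20.8%) in pair 2. It gave 41 to 54 (24.4% to 31.8%) and 3 to 5 (31.4% to 41.2%) in pair 3, and 35 to 47 (23.7% to 29.2%) and 3 to 4 (27.0% to 34.6%) between the pairs. Pool levels, whose alternatives were added after seeing the data, put C3 at 0.35 with centred arrays and 0.59 with processed signals, and T3 at -0.085 with centred arrays, -0.025 and 0.047 within slides 1 and 2, and -0.023 to -0.015 without 1 array of pair 2. C3 was between 0.39 and 0.42 without 1 array.

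Of 44 named genes, 34 kept their sign in every alternative, and 22 of 902 values changed sign. Sizes were less stable: the ratio changed sign or moved over 1.5 times for 34 of 44 genes with local backgrounds as deposited, for 17 with processed signals or the deposited table (14 of them larger), for 10 with the mean of probes, for 7 with centring and for 6 with an offset of 10. With processed signals mrps9 was -1.46, mrps6 1.85, mrpl16 1.81, mrpl34 -1.16, chchd1 -1.09, yy1b -0.86 and mterf4 -0.84. mrpl51 became 0.053 with local backgrounds as deposited, 0.055 with the mean of probes, 0.017 on slide 2, 0.016 with independent arrays and 0.14 with the dimmest probe. mrps33 became -0.000893 with processed signals or the deposited table, -0.014 with centring and -0.0011 on slide 2. mrpl30 became -0.030 with centring, -0.12 with the mean of probes and -0.37 with the dimmest. mrpl16 became -0.52 with the filter on both channels or the dimmest probe, lrpprc 0.019 with the mean of probes and mrps5 0.14 with the dimmest. Pair 3 alone and pair 2 alone gave -0.62 and 0.091 for mrps5, -0.68 and 0.23 for mrps10, -0.17 and 0.012 for mrps34, -0.17 and 0.11 for mrpl51, -0.44 and 0.059 for gatb, and -0.53 and 0.031 for rcc1l.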
